A study of Mus musculus with 13 samples.

Results

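The miR-29 family of microRNAs (miRNAs) was taken as every mature arm counted from the mouse hairpins mmu-mir-29a, mmu-mir-29b-1, mmu-mir-29b-2 and mmu-mir-29c. The libraries listed 8 pairs of hairpin and mature miRNA for these 4 hairpins, which are 7 different mature miRNAs, because miR-29b-3p has the same sequence in both mir-29b hairpins and was counted 1 time. They are 7 of the 1384 mature miRNAs, and 4 of the 903 hairpins, listed in any of the 13 libraries.

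The study sequenced small RNA from the hippocampus and the prefrontal cortex (PFC) of TgR mice and of FVB/N control mice. TgR mice are transgenic for the human read-through variant of acetylcholinesterase (hACHE-R), a soluble, stress-induced form of the enzyme that breaks down acetylcholine, overexpressed from the minimal promoter-enhancer of cytomegalovirus on the FVB/N strain; controls are wild type FVB/N. There were 3 FVB/N and 3 TgR hippocampal libraries, and 3 FVB/N and 4 TgR PFC libraries. Each PFC library is named as 1 animal, and the hippocampal libraries are named by a number only. The age and sex of these animals and whether hippocampus and PFC came from the same mice are not given in the sources used here. The p-values therefore measure the spread between these libraries. The small RNA reads do not show the level of the transgene.

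miRNAs are short RNAs cut from a hairpin, one from its 5' arm (5p) and one from its 3' arm (3p). One arm is usually loaded into an Argonaute protein and kept, and it pairs with target mRNAs mostly through its seed, the bases 2 to 8. The miR-29 family is known as one of the families that rise strongly as the brain matures, is abundant in astrocytes and in mature neurons, and targets mRNAs of DNA methyltransferases, of collagens and other matrix proteins, and of BH3-only proteins that promote cell death.

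The 3 main arms are shown first, from RefSeq (GRCm38.p6), with the seed in capitals, because the seed is what they share and the bases after it are what tell them apart.
miR-29a-3p: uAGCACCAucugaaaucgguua
miR-29b-3p: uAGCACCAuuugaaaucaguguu
miR-29c-3p: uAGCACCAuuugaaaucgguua
All 3 have the seed AGCACCA, and none of the other mature miRNAs among the 1679 in the RefSeq table has it. Counting from 1 at the 5' end, miR-29a-3p and miR-29c-3p differ only by C10U. miR-29b-3p differs from miR-29c-3p by G18A, U21G and A22U and has 1 further base at its 3' end, and from miR-29a-3p by C10U as well. The count of miR-29c-3p in a library with far more miR-29a-3p therefore rests on reading 1 base.

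The 5p arms, again with bases 2 to 8 in capitals, are shown because their sequences differ and so tell the 4 hairpins apart.
miR-29a-5p: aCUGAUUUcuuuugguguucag
miR-29b-1-5p: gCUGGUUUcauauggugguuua
miR-29b-2-5p: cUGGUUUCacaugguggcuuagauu
miR-29c-5p: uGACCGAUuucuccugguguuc
These 4 seeds are all different. Those of miR-29b-1-5p and miR-29b-2-5p lie in the same run of bases, CUGGUUUC, which starts 1 base later in miR-29b-1-5p. Only the seed of miR-29b-2-5p occurs in another RefSeq miRNA, miR-6338, which had no count in any library.

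The 4 hairpins form 2 clusters in GRCm38 (GENCODE M21). Mir29a (chr6:31062660-31062747) and Mir29b-1 (chr6:31063023-31063093) lie 275 bases apart on the minus strand of chromosome 6. Mir29a overlaps no annotated gene, Mir29b-1 lies in an exon of the lincRNA Gm27019, and the nearest protein-coding gene, Klf14, is 103582 bases from Mir29a. Mir29b-2 (chr1:195037040-195037120) and Mir29c (chr1:195037547-195037634) lie 426 bases apart on the plus strand of chromosome 1, within exons of the noncoding transcript A330023F24Rik and opposite exons of Cd46. The mature miR-29b-3p lies at chr6:31063025-31063047 and at chr1:195037091-195037113, and its counts at the 2 hairpins, which were the same reads, differed by at most 0.156%.

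With each mature miRNA counted 1 time, totals ran from 5350259 counts in TgR PFC replicate 2 up to 11111883 in TgR hippocampus replicate 1, so that 3 counts, the most that a count of 0 allows, are 0.270 to 0.561 CPM (counts scaled to the library total). The family took 1.92% to 3.57% of these counts. No 2 replicates of a group agreed within sampling noise. The summed CPM of 5 miRNAs known from neurons was 258310 to 407004 in the 13 libraries, and that of 10 miRNAs of choroid plexus and ciliated cells was 2668 to 9987 in TgR hippocampus, 1612 to 2247 in FVB/N hippocampus and 1031 to 1474 in PFC. The values below are CPM scaled by trimmed mean of M values (TMM) over the 13 libraries. CPM of different miRNAs are set side by side as counts, and how efficiently each sequence is ligated and amplified was not measured.

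miR-29a-3p was by far the most abundant member, with a mean of 25022 CPM over the 13 libraries, the 7th highest of all mature miRNAs. miR-29b-3p followed at 1516 CPM (67th) and miR-29c-3p at 354 CPM. Of the minor arms, miR-29c-5p was at 114 CPM, miR-29b-2-5p at 33.4, miR-29a-5p at 25.9 and miR-29b-1-5p at 4.64 CPM, the last on 12 to 71 counts per library. The order miR-29a-3p, miR-29b-3p, miR-29c-3p, miR-29c-5p, miR-29b-2-5p held in 13 of 13 libraries. The next neighbours, miR-29b-2-5p and miR-29a-5p, changed places: miR-29b-2-5p was the higher in 10 of 13. miR-29b-1-5p was the lowest member in every library.

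**Figure D1:**
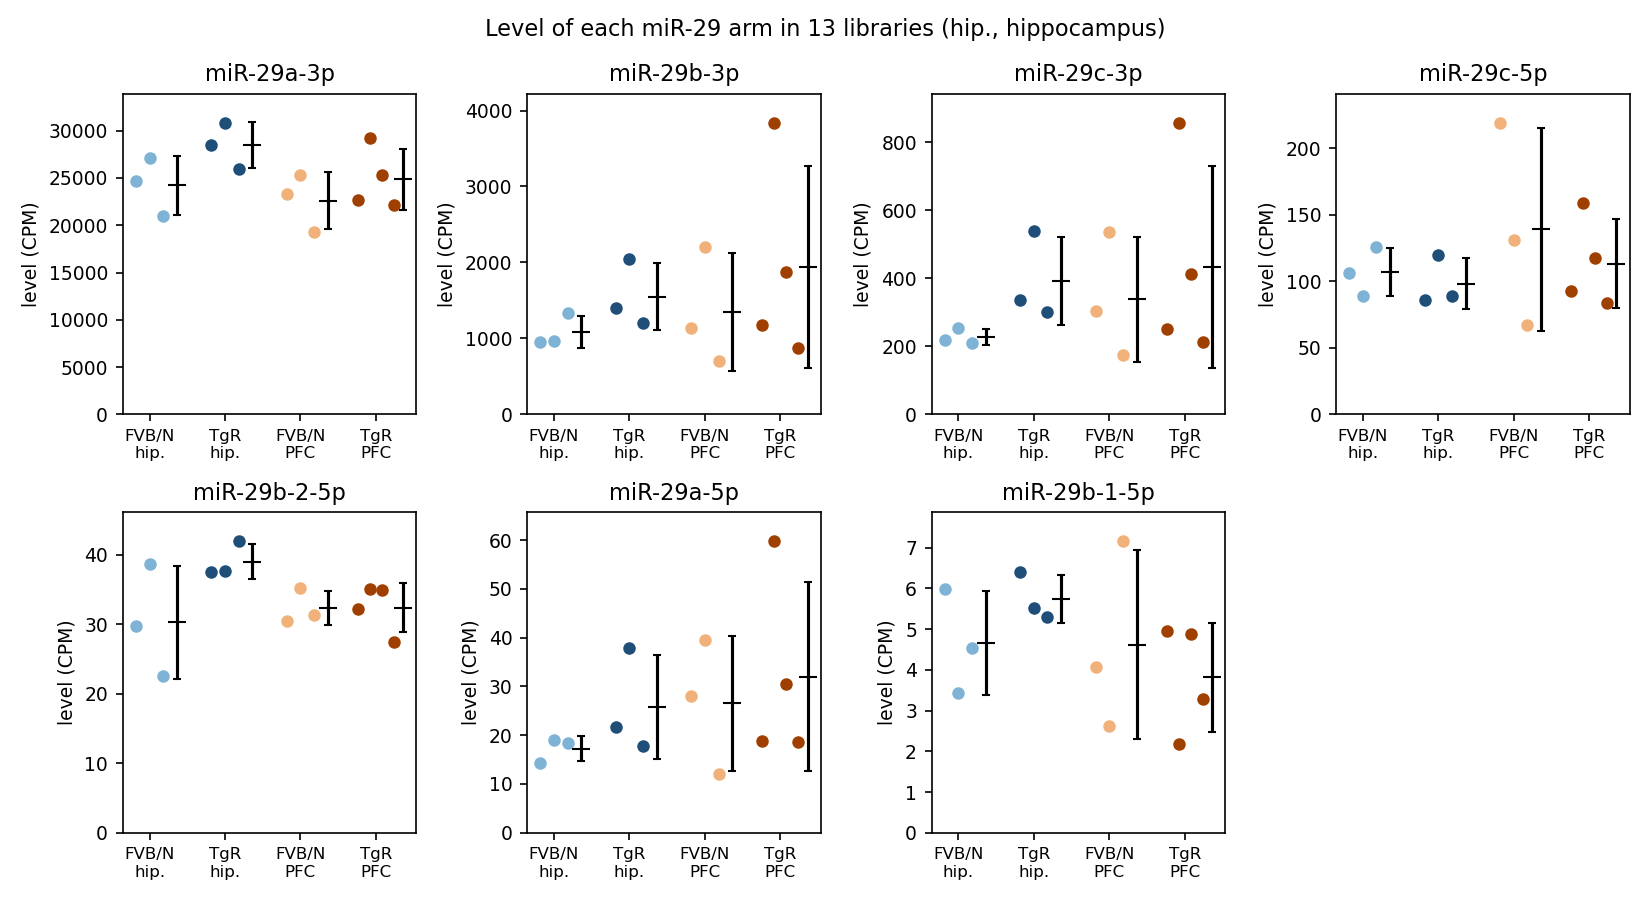
Level in TMM-scaled CPM (vertical axes, each from 0) of the 7 mature miRNAs in the 13 libraries; points are libraries and the bar beside each group is its mean and SD. miR-29a-3p spans 19278 to 30855 CPM, while miR-29b-3p spans 704 to 3841 CPM and is widest in the PFC groups.

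Group levels of miR-29a-3p were 24242 ± 3109 CPM in FVB/N hippocampus, 28449 ± 2438 in TgR hippocampus, 22618 ± 3059 in FVB/N PFC (SD, n = 3 each) and 24841 ± 3236 in TgR PFC (SD, n = 4). The means of the 4 groups thus lay close to each other, and with the groups ordered by mean each overlapped the next. TgR hippocampus (lowest 25980 CPM) and FVB/N PFC (highest 25282 CPM), which differ in both genotype and region, did not overlap. The share of all miRNAs that separate this pair was not computed. miR-29b-3p was at 1083 ± 215, 1550 ± 436 and 1349 ± 773 CPM in the same 3 groups (SD, n = 3 each) and at 1941 ± 1334 CPM in TgR PFC (SD, n = 4). miR-29c-3p was at 227 ± 23.3, 391 ± 129 and 338.2 ± 183 CPM (SD, n = 3 each) and at 433 ± 296 CPM in TgR PFC (SD, n = 4). The spread of both was widest in PFC.

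The spread between libraries differed widely among the members. Within groups, the SD of the log2 level was 0.70 for miR-29b-3p, 0.69 for miR-29c-3p, 0.68 for miR-29a-5p, 0.51 for miR-29b-1-5p and 0.50 for miR-29c-5p. It was 0.22 for miR-29b-2-5p and 0.18 for miR-29a-3p. Among the 213 mature miRNAs with a mean of at least 100 CPM, the median was 0.21, and miR-29b-3p varied more than 99.1% of them, miR-29c-3p more than 97.7%, miR-29c-5p more than 94.8% and miR-29a-3p more than 32.4%. The most abundant member was therefore steadier than the median but within the quartiles (0.16 to 0.28), and the next 2 were among the least steady. Without TgR PFC replicate 2, a choice made after seeing the data, the range of miR-29b-3p was 3.13-fold in place of 5.46-fold, that of miR-29c-3p 3.09-fold in place of 4.92-fold and that of miR-29a-5p 3.31-fold in place of 4.99-fold. The range of miR-29a-3p was 1.60-fold with or without it.

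Across libraries, miR-29b-3p, miR-29c-3p and miR-29a-5p went up and down together, although miR-29a-5p comes from another hairpin than miR-29c-3p, on another chromosome. There were 3.74 to 6.35 counts of miR-29b-3p per count of miR-29c-3p (median 4.12), and the SD of the log2 ratio was 0.20. For miR-29c-3p per miR-29a-5p the ratio was 10.8 to 16.9 (median 13.5, SD of log2 0.19), and for miR-29b-3p per miR-29a-5p it was 40.5 to 72.7 (median 61.3, SD of log2 0.24). These 3 ratios moved by at most 1.79-fold over libraries in which each arm alone moved about as far as 5-fold.

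miR-29a-3p and miR-29b-2-5p, also from different chromosomes, were both steadier than the other members. Their ratio was 615 to 932 (median 760), with an SD of log2 of 0.17. It moved by 1.51-fold, where miR-29a-3p alone moved by 1.60-fold and miR-29b-2-5p alone by 1.87-fold, so that the ratio shows little beyond the steadiness of each. miR-29a-3p did not keep its ratio to the other main arms: there were 34.1 to 112.9 counts of it per count of miR-29c-3p (SD of log2 0.53) and 7.61 to 28.3 per count of miR-29b-3p (SD of log2 0.55). In both, the lowest ratio was in TgR PFC replicate 2. miR-29c-5p and miR-29b-1-5p stayed close to neither set. miR-29b-1-5p was highest in FVB/N PFC replicate 3, where miR-29b-3p, miR-29c-3p and miR-29a-5p were lowest. It was lowest in TgR PFC replicate 2, where those 3 arms were highest. In TgR hippocampus replicate 2 it was above its mean, as they were. Whether it ran opposite to them across all libraries was not tested. miR-29c-5p shared their lowest library and was above its mean in TgR PFC replicate 2, but was highest in FVB/N PFC replicate 1. The set of miR-29b-3p, miR-29c-3p and miR-29a-5p thus crossed the 2 arms of a hairpin and the 2 clusters.

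**Figure D2:**
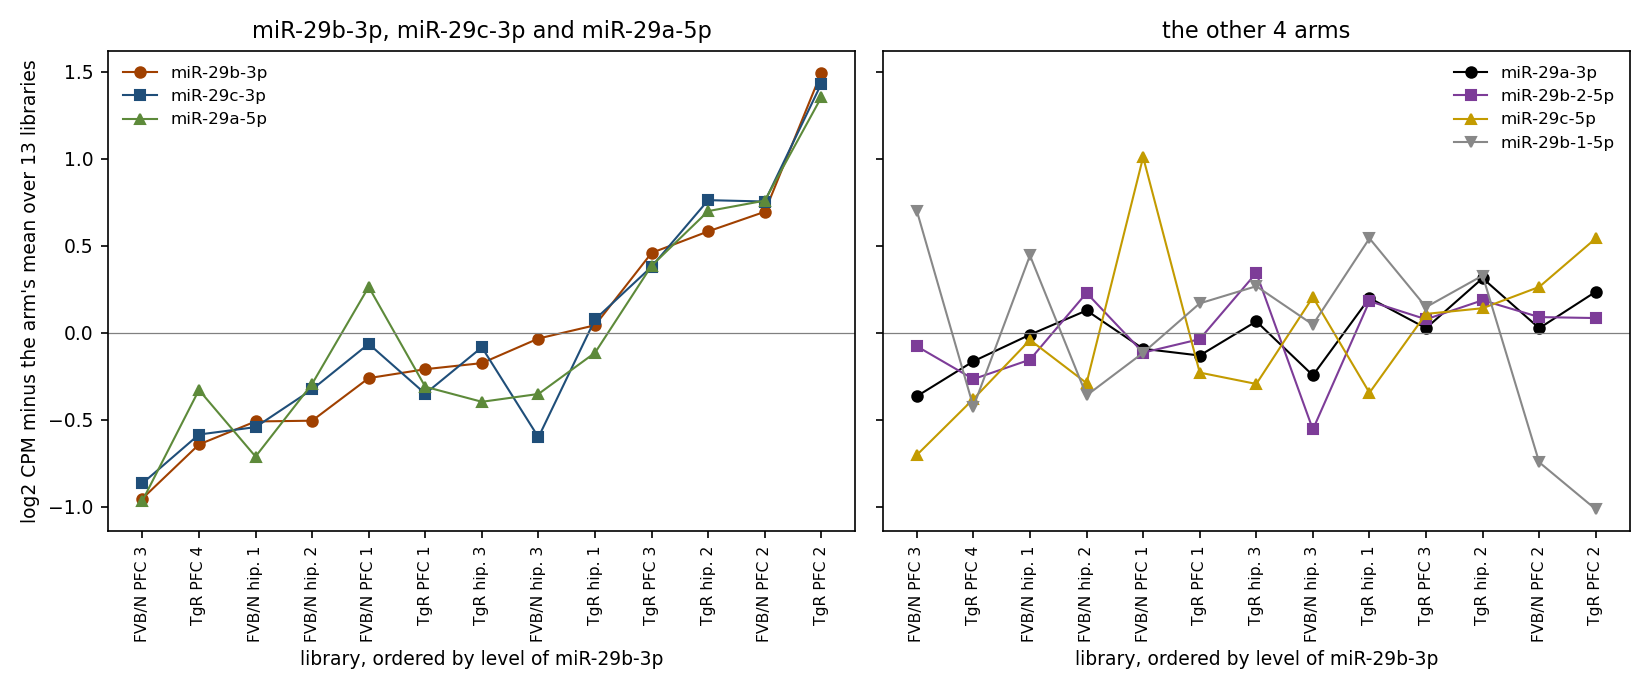
Log2 CPM of each member minus its own mean over the 13 libraries (vertical axis), with libraries ordered along the horizontal axis by the level of miR-29b-3p. On the left the 3 arms miR-29b-3p, miR-29c-3p and miR-29a-5p stay close together from FVB/N PFC replicate 3 to TgR PFC replicate 2. On the right miR-29a-3p and miR-29b-2-5p stay closer to 0, and miR-29c-5p and miR-29b-1-5p stay close to neither set.

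The library with the highest level of all 3 arms, TgR PFC replicate 2, was also the shallowest. It had 3841 CPM of miR-29b-3p on 5350259 counts in all. The next 2, FVB/N PFC replicate 2 and TgR hippocampus replicate 2, had 2206 and 2040 CPM on 7017152 and 8695210 counts, which are the 2nd and 5th lowest totals. The 3rd and 4th lowest totals, 8247254 in FVB/N hippocampus replicate 3 and 8365147 in FVB/N hippocampus replicate 1, came with 1331 and 957 CPM. The lowest level, in FVB/N PFC replicate 3, was 704 CPM on 9420497 counts, the 7th lowest total. TgR PFC replicate 2 also had the highest summed level of 5 red blood cell miRNAs, 4184 CPM, against 990 to 3010 CPM in the other 12 libraries. The part of depth, of blood or of RNA handling in these differences was not tested.

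The members that varied together were those with the highest share of A and U. That share was 65.2% in miR-29b-3p, 63.6% in miR-29c-3p and 63.6% in miR-29a-5p. It was 59.1% in miR-29a-3p and in miR-29b-1-5p, 56.0% in miR-29b-2-5p and 50.0% in miR-29c-5p, where the median over the 183 mature miRNAs of at least 100 CPM that the RefSeq table holds was 54.5%. Outside the family, and picked after these values were seen, miR-137-3p, a neuronal miRNA, had the profile nearest to each of the 3 arms, with a root mean square difference in centred log2 CPM of 0.21 to miR-29b-3p, 0.16 to miR-29c-3p and 0.20 to miR-29a-5p. The median difference over the 209 other miRNAs of at least 100 CPM was 0.70 for each. miR-137-3p was lowest and highest in the same libraries as miR-29b-3p, at 481 CPM in FVB/N PFC replicate 3 and 1770 CPM in TgR PFC replicate 2. The 5 nearest to each arm were 6 miRNAs in all, with differences of up to 0.37, and the others were miR-376b-3p, miR-153-3p, miR-380-3p, miR-30b-5p and miR-126a-5p. miR-376b-3p had a difference of 0.30, 0.28 and 0.24 to the 3 arms, and miR-153-3p was nearer to miR-29b-3p, at 0.29. The sequences of miR-137-3p and miR-376b-3p, which were among the nearest 3 to each arm, are shown beside the family's because they have another seed.
miR-137-3p: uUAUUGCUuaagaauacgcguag
miR-376b-3p: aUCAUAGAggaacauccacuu
The share of A and U was 65.2% in miR-137-3p, 61.9% in miR-376b-3p and 63.6% in miR-153-3p and miR-380-3p. It was not computed for miR-30b-5p and miR-126a-5p. Over the 183 miRNAs of at least 100 CPM its quartiles were 47.8% and 59.1%. Whether other miRNAs rich in A and U varied in this way, and the part of base content in these profiles, was not tested.

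The summed level of miR-29a-3p, miR-29b-3p and miR-29c-3p, which is mostly miR-29a-3p, had other neighbours. By a rule set for the summed level, the 5 nearest were miR-384-5p (root mean square difference 0.093), miR-3068-5p (0.099), miR-16-5p (0.118), miR-136-3p (0.123) and miR-30e-5p (0.140). The median over the 209 miRNAs was 0.335, and the summed level itself departed from its own mean by 0.210.

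Within the 3 main arms, miR-29a-3p made up 86.2% to 95.7% of the counts, miR-29b-3p 3.39% to 11.3% and miR-29c-3p 0.846% to 2.53%. The share of miR-29c-3p was 0.891% ± 0.0434 in FVB/N hippocampus and 1.27% ± 0.296 in TgR hippocampus (SD, n = 3 each), without overlap. In level, 22.3% of the 619 miRNAs tested in hippocampus also did not overlap between genotypes. In PFC the share of miR-29c-3p was 1.34% ± 0.532 in FVB/N (SD, n = 3) and 1.49% ± 0.734 in TgR (SD, n = 4), with overlap. Averaged over the regions, its log2 share was 0.30 higher in TgR (exact permutation test, two-sided, p = 0.257, adjusted p = 0.566 over the 18 tests of shares, arm ratios and sums). With 700 assignments, the smallest p that these tests can give is 0.0014. The summed level of the 3 arms was 0.21 higher in TgR on the log2 scale (exact permutation test, p = 0.0929, adjusted p = 0.546) and 0.12 higher in hippocampus (exact permutation test, p = 0.284, adjusted p = 0.566).

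The 3p arm outnumbered the 5p arm at every hairpin and in all 13 libraries, but by very different factors. There were 489 to 1725 counts of miR-29a-3p per count of miR-29a-5p (median 1190). miR-29b-3p, which pools both mir-29b hairpins, had 98.3 to 1762 counts per count of miR-29b-1-5p (median 280) and 22.5 to 110 per count of miR-29b-2-5p (median 37.2). For miR-29c there were only 1.39 to 5.41 counts of the 3p arm per count of the 5p arm (median 2.85). The miR-29c hairpin was thus the one whose 2 arms were seen at similar counts, and miR-29c-5p stood above all other 5p arms of the family in 13 of 13 libraries.

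**Figure D3:**
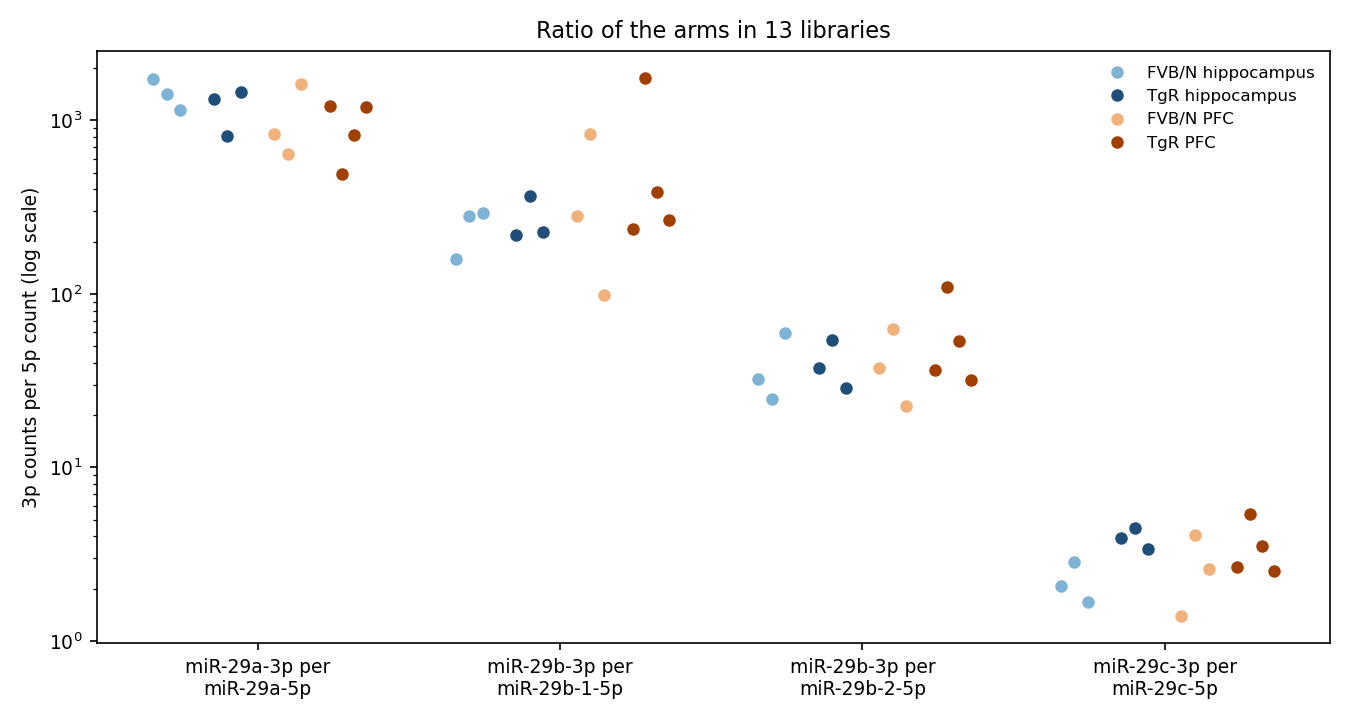
Counts of the 3p arm per count of the 5p arm (vertical axis, log scale) at the 4 hairpins, with a point for each of the 13 libraries coloured by group. The miR-29a ratio is 489 to 1725 and the miR-29c ratio 1.39 to 5.41; in hippocampus the TgR points for miR-29c lie above the FVB/N points.

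Averaged over the regions, the arm ratio of miR-29c was the one that differed most between genotypes, while in PFC alone that of miR-29b-1 differed more (-0.68 on the log2 scale). There were 0.485, 0.351 and 0.599 counts of miR-29c-5p per count of miR-29c-3p in FVB/N hippocampus replicates 1 to 3 and 0.256, 0.223 and 0.296 in TgR hippocampus. All 3 TgR hippocampi lay below all 3 FVB/N hippocampi. In level, 22.3% of the 619 miRNAs tested there also did not overlap between genotypes. This ratio and the share of miR-29c-3p both use the counts of miR-29c-3p, so they are not separate results. In PFC the ratio was 0.721, 0.244 and 0.384 in FVB/N and 0.373, 0.185, 0.284 and 0.395 in TgR, with overlap. Averaged over the regions, the log2 ratio was lower in TgR by -0.66 (exact permutation test, two-sided, p = 0.04), but the adjusted p was 0.527 over the 18 tests. The genotype difference was -0.87 in hippocampus and -0.46 in PFC, and averaged over the genotypes the log2 ratio in hippocampus differed from that in PFC by -0.0050 (exact permutation test, p = 0.986, adjusted p = 0.986).

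No other arm ratio or share had an unadjusted p under 0.05. The 5p arms of the chromosome 1 cluster (mir-29b-2 and mir-29c) had 3.13 to 7.77 times the counts of those of the chromosome 6 cluster (mir-29a and mir-29b-1). This ratio was -0.40 in TgR relative to FVB/N on the log2 scale (exact permutation test, p = 0.0586, adjusted p = 0.527). Between regions, the 3 other arm ratios differed by -0.49 (mir-29a), 0.53 (mir-29b-1) and 0.22 (mir-29b-2), with exact permutation p = 0.121, p = 0.381 and p = 0.549. The 18 adjusted p were all at least 0.527.

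The genotypes were first compared in the hippocampus. None of the 7 members passed the threshold there (edgeR quasi-likelihood test, Benjamini-Hochberg adjusted p under 0.05 over all 619 mature miRNAs tested), where 30 of the 619 (4.85%) did. At an unadjusted p under 0.05 there was 1 of 7 (miR-29c-3p), against 17.4% of all tested. The log2 fold change was above 0 for 6 of 7, against 49.9% of all tested, and its median was 0.35, against -0.0014 over all tested; these signs were the same under each scaling tried.

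miR-29c-3p had the lowest p of the family. Its levels were 218, 254 and 210 CPM in FVB/N hippocampus replicates 1 to 3 and 335, 539 and 300 CPM in TgR hippocampus. The groups did not overlap, which 11.3% of the tested miRNAs also showed in this direction. The log2 fold change was 0.77 (standard error 0.23, 95% interval 0.27 to 1.28, edgeR adjusted p = 0.090). Over the alternatives tried, the adjusted p went from 5.2e-04 to 0.483. DESeq2 called it (adjusted p = 0.023), with 6.46% of its 743 miRNAs called, as did edgeR without a filter on low counts (adjusted p = 5.2e-04, 4.94% of 1295 called) and a threshold of 0.1 (7.92% of 619 called). TgR hippocampus replicate 2 held the highest value, and without it the log2 fold change was 0.45 (adjusted p = 0.247).

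The other arm of the same hairpin, miR-29c-5p, did not follow. Its level was 107 ± 18.2 CPM in FVB/N hippocampus and 98.2 ± 19.0 CPM in TgR hippocampus (SD, n = 3 each), and the log2 change was -0.14 (standard error 0.21, edgeR adjusted p = 0.759). miR-29b-3p measured 957, 960 and 1331 CPM in the FVB/N hippocampi against 1404, 2040 and 1207 CPM in the TgR hippocampi, with overlap. Its log2 fold change was 0.50 (standard error 0.23, 95% interval -0.0099 to 1.01, edgeR adjusted p = 0.291), 0.23 without TgR hippocampus replicate 2, and it was called only by edgeR without a filter (adjusted p = 0.022). miR-29a-3p measured 24639, 27134 and 20954 CPM in the FVB/N hippocampi against 28512, 30855 and 25980 CPM in the TgR hippocampi, also with overlap, and its log2 fold change was 0.22 (standard error 0.12, edgeR adjusted p = 0.375). The remaining 5p arms had log2 fold changes of 0.56 (miR-29a-5p), 0.35 (miR-29b-2-5p) and 0.30 (miR-29b-1-5p), with adjusted p from 0.338 to 0.543. With 1 library left out these fell to 0.16 (miR-29a-5p, without TgR hippocampus replicate 2), 0.19 (miR-29b-2-5p, without FVB/N hippocampus replicate 3) and 0.10 (miR-29b-1-5p, without FVB/N hippocampus replicate 2), and miR-29a-3p to 0.14 without TgR hippocampus replicate 2.

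Other miRNAs moved with genotype in the hippocampus. Of 10 miRNAs of choroid plexus and ciliated cells, 8 were called higher in TgR, with a summed level of 9987, 2668 and 8281 CPM in TgR replicates 1 to 3. Among the TgR hippocampi, replicate 2 had the most miR-29c-3p and the least of these. The FVB/N hippocampi had less of both, with 1612 to 2247 CPM of these and 210 to 254 CPM of miR-29c-3p. Of 5 red blood cell miRNAs, 4 were called lower in TgR, with a summed level of 990 to 1390 CPM against 2223 to 2337 CPM. Of 4 other miRNAs enriched in astrocytes (miR-23a-3p, miR-23b-3p, miR-26a-5p and miR-26b-5p), edgeR called 0 and DESeq2 2, and 3 had an unadjusted p under 0.05. Their median log2 fold change was 0.42 and their range -0.078 to 0.54. The miR-26 members of this list are also the miR-26 family compared between regions below. Of 5 neuronal miRNAs both tools called 0, 2 had an unadjusted p under 0.05, and the median was 0.079. Of the oligodendrocyte list 1 of 4 was called higher, and of 5 miRNAs of microglia and white blood cells and 4 of vessels edgeR and DESeq2 called 0, with 0 and 1 at an unadjusted p under 0.05. In bulk tissue, fewer cells of a type and less RNA per cell cannot be told apart, and the part of these other miRNAs in the levels of miR-29 was not tested.

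**Figure D4:**
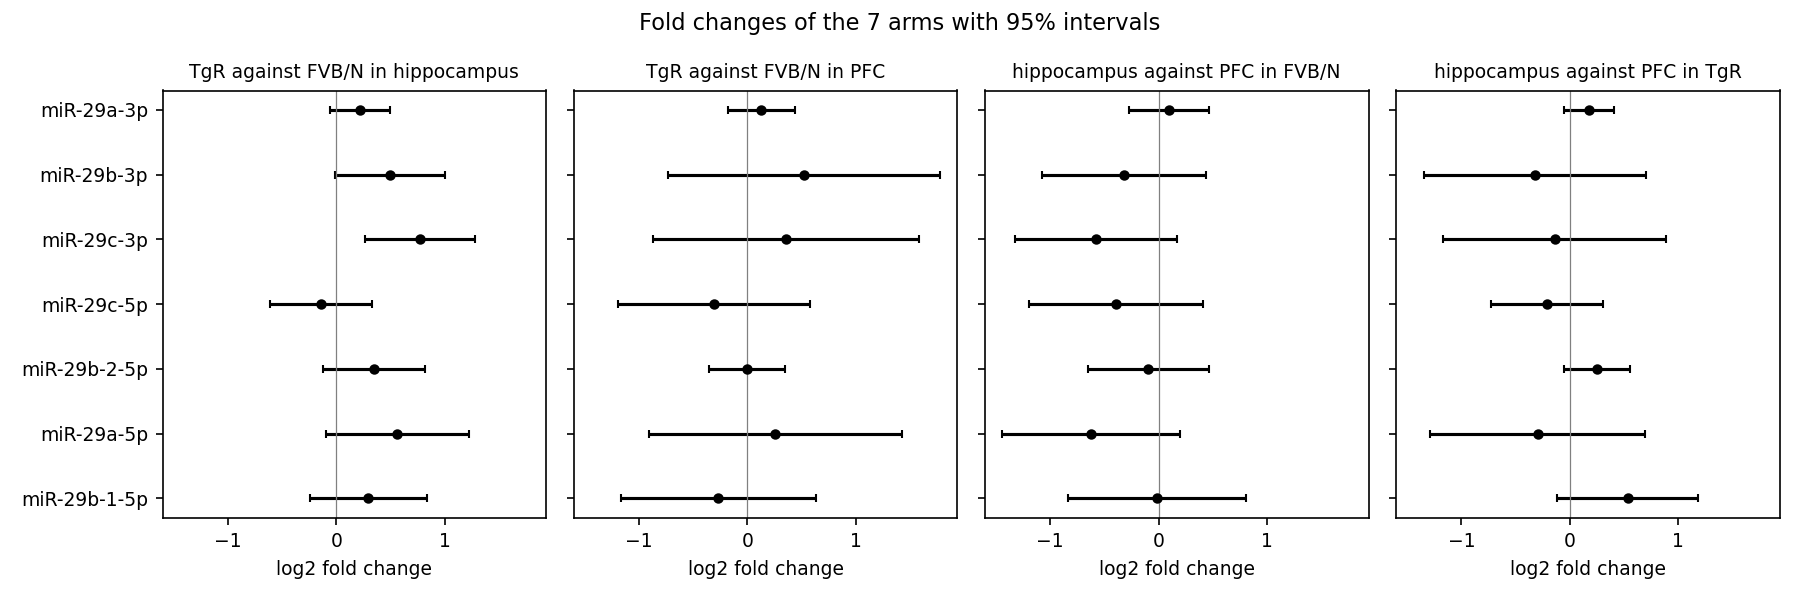
Log2 fold change (horizontal axes) of the 7 members in the 4 pairwise comparisons, with 95% intervals from edgeR that are not adjusted for the number of miRNAs. The interval of miR-29c-3p in the hippocampal genotype comparison, 0.27 to 1.28, is the only one that leaves out 0, and the intervals of miR-29b-3p, miR-29c-3p and miR-29a-5p are wide wherever PFC is compared.

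In PFC, none of the 7 members was called between genotypes, where 1 of 628 mature miRNAs (0.159%) was, and each member's edgeR adjusted p was 0.999. miR-29b-3p was at 1137, 2206 and 704 CPM in FVB/N PFC replicates 1 to 3 and at 1178, 3841, 1873 and 873 CPM in TgR PFC replicates 1 to 4. The range of each group covered most of the other. Its log2 fold change of 0.52 had a 95% interval of -0.73 to 1.78 and was -0.06 without TgR PFC replicate 2. miR-29c-3p likewise went from 0.35 (95% interval -0.88 to 1.58) to -0.23 without that library. Both intervals include a 2-fold increase and leave out a 2-fold decrease. miR-29a-3p and miR-29b-2-5p had narrower intervals, with log2 fold changes of 0.13 (95% interval -0.18 to 0.44) and -0.0038 (95% interval -0.36 to 0.35), the sign of the latter turning with DESeq2 size factors.

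The genotype effect was also compared between the regions in a single fit of the 13 libraries. None of the 7 members was called, against 3 of 647 (0.464%). In this fit, and in each comparison within PFC, FVB/N or TgR and over both genotypes, 0 of the 7 also had an unadjusted p under 0.05 and DESeq2 called 0. Of all miRNAs tested, the share at an unadjusted p under 0.05 was 8.5% in this fit, 3.18% between genotypes in PFC, 16.6% and 27.5% between regions in FVB/N and TgR, and 31.1% between regions over both genotypes. DESeq2 called 1.35%, 0.077%, 5.9%, 15.5% and 17.6% of its miRNAs in the same order. The lowest adjusted p of the family was 0.821 (miR-29b-2-5p, a difference of 0.36). For miR-29c-3p the hippocampal effect exceeded that in PFC by 0.43 (standard error 0.65, 95% interval -0.96 to 1.82, edgeR adjusted p = 0.955), so that its effect was not shown to differ between the regions.

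Between the regions, none of the 7 members was called in FVB/N, where 22 of 615 (3.58%) were. The lowest adjusted p was 0.458, shared by miR-29a-5p (log2 fold change, hippocampus over PFC, of -0.62) and miR-29c-3p (-0.58). Both were called only when FVB/N PFC replicate 3, the library with the lowest values, was left out. They were then at -0.98 (edgeR adjusted p = 0.038) and -0.89 (edgeR adjusted p = 0.047), with 51 of 620 miRNAs called (8.23%). Without FVB/N PFC replicate 2, the library with the highest values of the group for miR-29c-3p, they were instead at -0.21 (miR-29a-5p) and -0.073 (miR-29c-3p). miR-29a-3p was at 0.096 (standard error 0.17).

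In TgR, none of the 7 was called either, where 86 of 633 (13.6%) were. miR-29b-1-5p was at 6.41, 5.53 and 5.30 CPM in TgR hippocampus and 4.95, 2.18, 4.88 and 3.28 CPM in TgR PFC, and miR-29b-2-5p at 37.5, 37.6 and 42.0 CPM against 32.2, 35.1, 34.9 and 27.5 CPM. In both, all hippocampi lay above all PFC libraries, as they did for 15.2% of the tested miRNAs. The log2 fold changes were 0.53 (standard error 0.28, edgeR adjusted p = 0.275) and 0.25 (standard error 0.13, edgeR adjusted p = 0.280), the former on 12 to 71 counts. miR-29a-3p was at 0.18 (standard error 0.10, edgeR adjusted p = 0.304), and at 0.089 without TgR hippocampus replicate 2.

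Averaged over both genotypes, 19.2% of the 647 mature miRNAs were called between the regions and none of the 7 members was. The lowest adjusted p of the family was 0.322, for miR-29a-3p, at a log2 fold change of 0.15 (95% interval -0.056 to 0.35). In the same comparison 4 of 8 members of the let-7 family, 1 of 2 of the miR-26 family and, by both tools and with 0 at an unadjusted p under 0.05, 0 of 5 of the miR-30 family were called. Within the genotypes, of 4 oligodendrocyte miRNAs 4 were called higher in the hippocampus in TgR and 2 in FVB/N, with median log2 fold changes of 1.80 and 1.19. Of 5 members of the miR-30 family both tools called 0 in either genotype, with 1 in TgR and 0 in FVB/N at an unadjusted p under 0.05. Of 2 members of the miR-26 family edgeR called 1 in TgR and 0 in FVB/N, where DESeq2 also called 0 and 0 had an unadjusted p under 0.05. Of 8 members of the let-7 family, which also rises in the maturing brain, 2 were called in TgR and 0 in FVB/N, where DESeq2 also called 0 and 2 had an unadjusted p under 0.05.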

How the data were processed

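Total RNA from hippocampus and PFC was made into small RNA libraries with the NEBNext Multiplex Small RNA kit and sequenced on an Illumina instrument. The authors checked read quality with FastQC, counted reads per pair of hairpin and mature miRNA with miRExpress against miRBase, and tested them with DESeq2. The deposited values are raw counts, not normalized, 1 table per library; the genome build is not given in the sources used here, and coordinates come from a GRCm38 annotation. Groups were taken from genotype and tissue in the labels.

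A mature miRNA listed at several hairpins was kept at the hairpin with the highest total over the 13 libraries, since almost the same reads were counted at each. Counts were filtered with filterByExpr (minimum count 10), scaled by TMM and tested with edgeR 4.0.16 (glmQLFit and glmQLFTest) in R 4.3.3 across all mature miRNAs, p-values being adjusted by Benjamini-Hochberg and called under 0.05; 95% intervals use the moderated residual degrees of freedom. Genotypes were compared within each region and regions within each genotype, on the libraries concerned. Log2 arm ratios, shares and the sum of main arms were compared with exact two-sided permutation tests within the other factor (700 assignments; 9 quantities, 2 factors). DESeq2 1.42.0 and the other alternatives are given further on. On simulated counts for the hippocampal genotype comparison (610 miRNAs), edgeR recovered 83.7% of 2-fold and 99.0% of 4-fold changes. For 2-fold changes it recovered 72.3% between genotypes in PFC and 40.4% for the difference in the genotype effect. Between regions it recovered 73% in FVB/N, 80.4% in TgR and 98.0% over both genotypes. Each simulation changed 200 miRNAs, where 30 were called in the data between genotypes in hippocampus and 1 in PFC. With fewer true changes the Benjamini-Hochberg cut-off is stricter, so these rates can be too high for these data. Every simulated miRNA also had the same spread, so the rates do not apply to members with a wider spread, such as miR-29b-3p, miR-29c-3p and miR-29a-5p. With 5350259 to 11111883 counts per library, the members with a mean above 100 CPM had at least 598 counts in each library, and the edgeR intervals cover the spread between libraries. The floor of 3 counts covers counting error only, as the reads carry no molecular identifiers.

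Named were all arms of the 4 hairpins, and the 5 miRNAs of at least 100 CPM whose centred log2 CPM differed least from the family's summed main arms. The family, the lists of other cell types' and families' miRNAs and the tests were chosen with earlier results of these data known.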

Additional observations from a re-analysis of the deposited data

How the results depend on the processing

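Called miRNAs depended on the setting, and the cause was not tested. With 1 library left out, the direction of every member but miR-29c-5p held between genotypes in hippocampus. In the other pairwise comparisons several members turned. In the hippocampal genotype comparison, 30 miRNAs and 0 members were called, against 49 and 1 at an adjusted p under 0.1, 48 and 1 with DESeq2, 64 and 2 without a filter on low counts, and 2 (without FVB/N hippocampus replicate 3) to 18 (without TgR hippocampus replicate 2) miRNAs with 1 library left out. Between regions in FVB/N, the 22 calls became 35 at 0.1, 36 with DESeq2, 52 without a filter, 12 at a mean of at least 300 counts, 49 with all 13 libraries in one fit, and 8 (without FVB/N PFC replicate 2) to 51 (without FVB/N PFC replicate 3), with 0 to 2 members. In TgR the 86 calls became 134 at 0.1 and 43 (without TgR PFC replicate 3) to 125 (without TgR PFC replicate 2). The 3 calls of the difference between regions in the genotype effect became 6 at 0.1, 10 with DESeq2, 16 without a filter, and 2 to 8 (without TgR hippocampus replicate 2) with 1 library left out.

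Replicate numbers 1 to 3 occur in all groups. Libraries of different genotypes come from different mice, and whether hippocampus and PFC libraries of 1 number share a mouse is not given. Correlations between libraries of different numbers reached 0.42 and -0.59 between genotypes in PFC, and 0.36 and -0.45 between regions in TgR. Not every correlation of same-numbered libraries was over 0.1, and the numbers were not used as pairs: the values were -0.06, 0.12 and -0.02 between genotypes in hippocampus, -0.17, 0.40 and 0.03 in PFC, and 0.11, 0.07 and 0.20 (FVB/N) and 0.09, 0.40 and -0.16 (TgR) between regions. With the replicate number as a block, 17 miRNAs were called in the hippocampal genotype comparison, 1 in PFC, 32 and 103 between regions in FVB/N and TgR, and 6 for the difference in the genotype effect, with 0 members in each. Under the block, miR-29b-2-5p turned to 0.069 between genotypes in PFC and miR-29b-1-5p to 0.064 between regions in FVB/N.

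Members near 0 turned sign, and with 1 library left out so did some further from it, such as miR-29b-3p between genotypes in PFC (0.52). In PFC, miR-29b-2-5p (-0.0038) was 4.4e-04 with DESeq2 size factors, 3.9e-04 with every hairpin pair kept and 0.0023 with all 13 libraries in one fit. With medians in place of means, the genotype difference of the miR-29a arm ratio was -0.075 and that of miR-29b-1 0.052. With 1 library left out, miR-29c-5p ranged from -0.33 to 0.020 between genotypes in hippocampus. In PFC the ranges were -0.24 to 0.65 (miR-29a-5p), -0.54 to 0.19 (miR-29b-1-5p), -0.049 to 0.068 (miR-29b-2-5p), -0.057 to 1.06 (miR-29b-3p), -0.23 to 0.84 (miR-29c-3p) and -0.63 to 0.20 (miR-29c-5p). Between regions in FVB/N they were -0.011 to 0.20 (miR-29a-3p), -0.28 to 0.43 (miR-29b-1-5p), -0.33 to 0.085 (miR-29b-2-5p), -0.64 to 0.24 (miR-29b-3p) and -0.73 to 0.10 (miR-29c-5p), and in TgR -0.74 to 0.15 (miR-29a-5p), -0.62 to 0.22 (miR-29b-3p) and -0.50 to 0.40 (miR-29c-3p). The difference in the genotype effect of miR-29c-3p was -0.039 to 0.99, and the regional difference of the miR-29c arm ratio -0.19 to 0.20.

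Scaling by library size only moved the median log2 fold change of all miRNAs from 0.027 to 0.13 between regions in TgR and from 0.027 to 0.15 for the difference in the genotype effect, and the split of higher and lower calls from 15 and 15 to 14 and 7 in hippocampus and from 42 and 44 to 70 and 37 between regions in TgR. Over both genotypes the split was 74 and 50, against 63 and 55 in edgeR with DESeq2 size factors. miR-29b-1-5p, on 12 to 71 counts per library, was the member most limited by depth.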
